A study of Mus musculus with 20 samples.

Results

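The genes described here are 10 regulators of T cell activity: the ligand genes Cd274 (PD-L1), Pdcd1lg2 (PD-L2), Cd80 and Cd86, the receptor genes Pdcd1 (PD-1), Ctla4, Lag3, Havcr2 (TIM-3) and Tigit, and the enzyme gene Ido1. They were listed by name, with earlier results of these data known, and are 10 of the 32991 genes for which a value could be formed. RNA-seq was carried out on colon tissue of 20 male C57BL/6 mice, with 1 library per mouse and 5 mice in each of 4 groups. Control mice received double distilled water by gavage, and PZH mice received 250 mg/kg/d of PZH (Pien Tze Huang, a formula of traditional Chinese medicine) for 91 days. Model mice received water by gavage and were given AOM/DSS, that is 1 injection of the carcinogen azoxymethane (AOM, 12.5 mg/kg) into the abdomen, then after 7 days the colitis-inducing polymer dextran sulfate sodium (DSS, 2% in drinking water) for 5 days and plain water for 2 weeks, over 4 cycles. Model + PZH mice received both AOM/DSS and PZH, which was given from the first day of AOM, so that it was present throughout the induction of colitis-associated cancer. The age of the mice is not given in the sources used here, no cell type was sorted, and the tissue labels do not separate tumor from the surrounding colon.

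Checkpoint molecules set how strongly a T cell responds. CD80 and CD86 on antigen-presenting cells activate T cells through CD28, and CTLA-4 takes the same ligands away from CD28. PD-1 is bound by PD-L1, which many cell types including epithelium can display, and by PD-L2, which is found mainly on dendritic cells and macrophages. LAG-3, TIM-3 and TIGIT are further inhibitory receptors of lymphocytes, TIM-3 being also present on myeloid cells, and IDO1 breaks down tryptophan to kynurenine. Interferon-gamma from T and NK cells is a known inducer of both PD-L1 and IDO1.

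Expression was deposited as FPKM, that is fragments scaled to transcript length and to library depth, and was summed over the annotated transcripts of each gene. Depth, read from the step size of the values, was between 15.3 and 19.4 M fragments per mouse. The epithelial genes Cdh1 (215 to 311 FPKM) and Vil1 (157 to 274 FPKM) were high in all 20 mice, although the extraction text of the labels names the abdominal aorta. Epcam, another epithelial gene, was listed at 0 in 13 mice and at 233 to 865 FPKM in the other 7. Krt8, also epithelial, ran from 0.0706 FPKM in PZH mouse 27 to 3071 FPKM in Control mouse 48. The 22252 assembled transcripts carry no gene name and are left out of all gene sums, and their part in any value here was not tested. Control mice 17 and 50 stood apart by squamous epithelium markers, with summed levels of 299 and 249.4 FPKM against 0.824 to 1.64 in the other 3 Control mice, so counts are also given without these mice where they change a call. In Model + PZH mouse 35 the neutrophil receptor gene Cxcr2 (3.27 FPKM) was within the range of Model mice (2.78 to 4.24), whereas the other 4 Model + PZH mice were at 0.245 to 1.09 FPKM. Values of single mice are always listed in the order of mice 17, 37, 41, 48 and 50 for Control, 8, 14, 27, 46 and 53 for PZH, 23, 30, 33, 44 and 52 for Model, and 2, 13, 15, 35 and 36 for Model + PZH.

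In the annotation (GENCODE M21, GRCm38), Cd274 (chr19:29367455-29388095) and Pdcd1lg2 (chr19:29410919-29471161) are neighbours on the same strand. Cd80 (chr16:38455561-38496335), Cd86 (chr16:36603869-36666081) and Tigit (chr16:43648867-43664146) share a chromosome, as do Ctla4 (chr1:60887000-60915832) and Pdcd1 (chr1:94038305-94052553). Lag3 lies at chr6:124904361-124911705, Havcr2 at chr11:46454935-46481255 and Ido1 at chr8:24584136-24597009. The files hold 1 transcript of Cd274, Pdcd1lg2, Cd80, Pdcd1, Havcr2 and Tigit, 2 of Ctla4, Lag3 and Ido1, and 3 of Cd86.

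Promoter sequences from RefSeq (GRCm38.p6) were at hand for 7 of the 10 genes, and 5 motifs were searched on both strands from 250 bases before to 50 bases after the start, a choice made after the values were seen. The IRF core GAAANNGAA was found in 2 of the 7, Cd274 and Ctla4, and in 8.56% of all 32851 promoters of this length. The longer interferon-stimulated form (ISRE), that is the IRF core followed by 1 more A, was in 0 of the 7 (3.44% of all promoters), and the interferon-gamma-activated site (GAS) motif TTCNNNGAA was in 0 of the 7 (8.30%). The AP-1 motif TGANTCA was in the Cd80 and Havcr2 promoters (7.81% of all), and a loose NF-kB motif, GGG and CC with 5 bases of any kind between them, in those of Cd80 and Pdcd1lg2 (50.8% of all). A match describes these letters only. The 250 bases before the start of both promoters with the IRF core are shown since these genes stand for a ligand and a receptor in the results, and the capitals mark the core, which reads as its reverse complement on the printed strand, 67 bases before the start in Cd274 and 157 in Ctla4.
Cd274 promoter, chr19:29367188-29367437, plus strand: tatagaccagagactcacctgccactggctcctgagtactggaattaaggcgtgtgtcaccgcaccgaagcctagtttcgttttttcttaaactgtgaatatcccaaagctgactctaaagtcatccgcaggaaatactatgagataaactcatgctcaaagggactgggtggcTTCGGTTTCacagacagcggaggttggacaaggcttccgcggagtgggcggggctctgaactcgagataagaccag
Ctla4 promoter, chr1:60908775-60909024, plus strand: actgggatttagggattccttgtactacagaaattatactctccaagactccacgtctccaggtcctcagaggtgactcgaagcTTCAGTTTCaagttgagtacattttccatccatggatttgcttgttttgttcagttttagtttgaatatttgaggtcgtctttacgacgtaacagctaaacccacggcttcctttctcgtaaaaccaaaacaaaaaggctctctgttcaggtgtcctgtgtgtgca

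The first comparison, Model against Control, asked how these genes differed in colon that had gone through AOM/DSS. Ido1, Ctla4, Havcr2, Cd86, Pdcd1 and Cd80 were higher in Model mice, that is 6 of the 10 genes, and none was lower. The count was read with limma at a Benjamini-Hochberg adjusted P under 0.05, by which 16.4% of the 15812 genes tested were higher in Model mice. In these 6 genes all 5 Model mice lay above all 5 Control mice, an order seen in 13% of the genes tested. Tests used log2(FPKM + 1), a scale on which changes of weakly expressed genes are understated. The median difference of the 10 genes on that scale was 0.67, beside 0.09 over all genes tested. Genes were tested if 5 or more of the 10 mice reached 0.5 FPKM, which all 5 Model mice did for each of the 10 genes. Only 1 Control mouse did so for Pdcd1lg2, Pdcd1 and Ctla4, 2 for Cd80 and 3 for Ido1, so these genes were tested on the strength of their Model values. With no filter 5 of the 10 were called higher, beside 8% of 31007 genes. Since tissue was measured in bulk, more cells of a type and more RNA per cell cannot be told apart in any of these values.

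**Figure D1:**
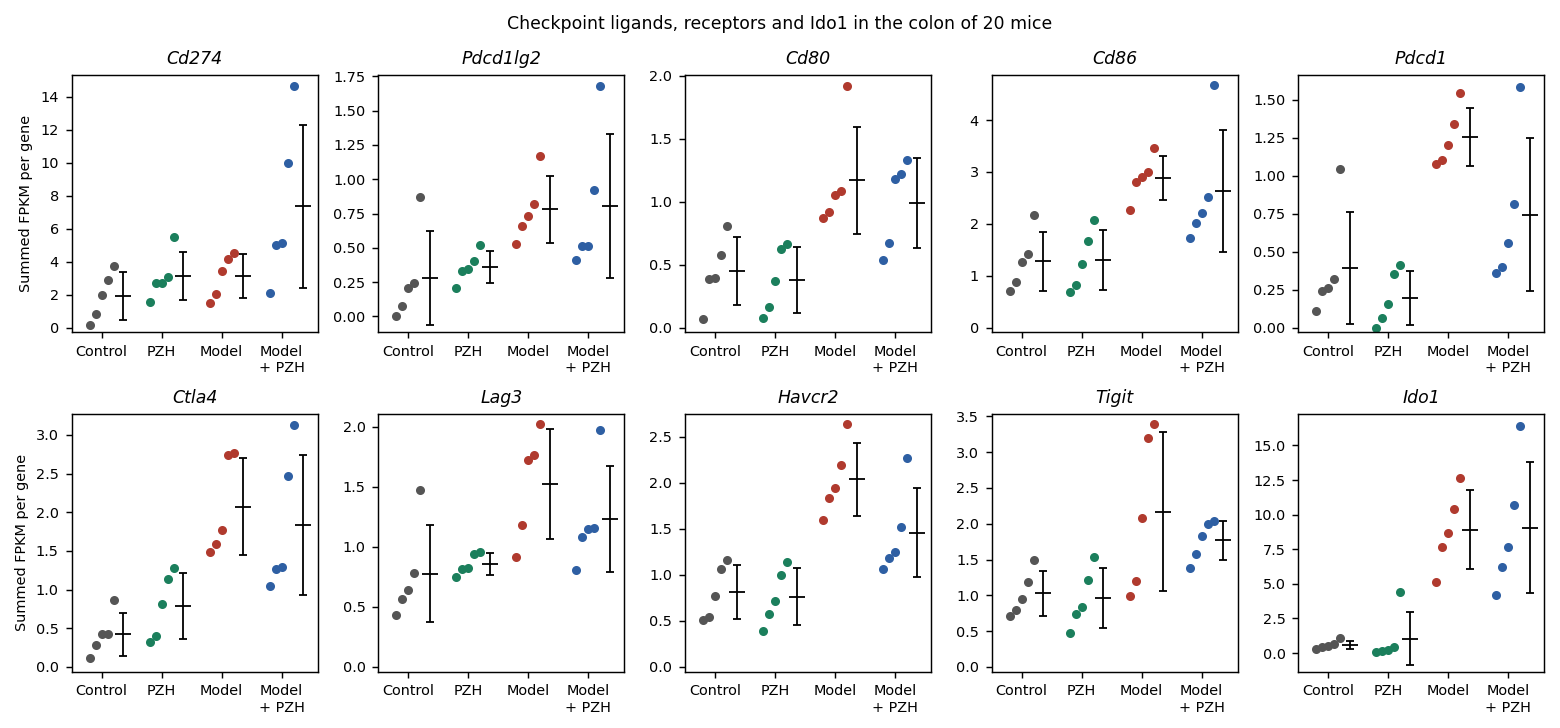
Summed FPKM per gene (vertical axes, linear) of the 10 genes in each group; each point is 1 mouse, placed in order of value, and bars at the right of a group give the mean ± SD (n = 5). In Ido1, Ctla4, Havcr2, Cd86, Pdcd1 and Cd80 the 5 Model points lie above the 5 Control points, while Cd274 has its highest points in Model + PZH mice (14.6 and 9.96 FPKM).

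Cd274, the PD-L1 gene, had the highest mean FPKM of the 10 genes in Control mice, at 2.90, 3.74, 0.852, 0.142 and 1.99 FPKM. Model mice gave 3.45, 1.48, 4.55, 2.01 and 4.19 FPKM. The groups overlapped, with 2 Model mice above all Control mice, and Control mouse 48 was the lowest of the 20 mice. In that mouse Cd274 was also the lowest of the 10 genes, and in Control mouse 41 Tigit and Cd86 were above it. The difference of 0.61 ± 0.39 (SE) in log2(FPKM + 1) had a 95% interval from -0.25 to 1.46 and an adjusted P of 0.295 (limma), so a difference was not detectable at this spread.

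Pdcd1lg2, which encodes the other PD-1 ligand, was weaker, at 0.0743, 0.873, 0.203, 0.246 and 0 FPKM in Control mice and 0.528, 0.656, 1.17, 0.730 and 0.819 FPKM in Model mice. Control mouse 37 was above 4 of the 5 Model mice, and the other 4 Control mice were below all of them. The log2 difference of 0.50 had an adjusted P of 0.0527 with all mice and of 0.0054 without Control mouse 37, where it was 0.65 (limma). That mouse also had the highest Ptprc level (10.5 FPKM) and B cell marker sum (80.6 FPKM) of the Control group.

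Of the B7 ligand genes, Cd86 was the stronger, at 1.41, 2.16, 0.871, 0.699 and 1.26 FPKM in Control mice against 2.26, 2.80, 2.90, 2.99 and 3.46 FPKM in Model mice. The groups did not overlap, although the gap between Control mouse 37 and Model mouse 23 was small, and the difference was 0.79 ± 0.17 (SE), with an adjusted P of 0.00799 by limma. Cd80 was at 0.0718, 0.804, 0.393, 0.384 and 0.578 FPKM in Control mice and 0.874, 1.052, 1.09, 0.916 and 1.92 FPKM in Model mice. Its difference of 0.59 had an adjusted P of 0.0261, which moved to 0.0512 with no filter, to between 0.0501 and 0.055 without any 1 of Control mice 17, 41 or 48 or Model mouse 52, and to 0.0846 without Control mice 17 and 50 (limma). Cd80 was thus near the threshold, and most of its counts were low, with a median of 18.1 estimated fragments per mouse.

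Among the receptors, Ctla4 showed the largest difference. Control mice had 0.425, 0.862, 0.431, 0.285 and 0.114 FPKM, and Model mice had 1.49, 1.59, 2.74, 1.77 and 2.76 FPKM. All Model mice were above all Control mice, the ratio of the mean FPKM was 4.89, and the difference of 1.11 ± 0.17 (SE) had an adjusted P of 0.00135 (limma). Ctla4-201, the protein-coding transcript at the printed promoter, held most of this, with 0.337 ± 0.240 FPKM (SD, n = 5) in Control and 1.87 ± 0.496 in Model mice.

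Pdcd1, the PD-1 gene, was at 0.317, 1.04, 0.107, 0.258 and 0.243 FPKM in Control mice and at 1.11, 1.20, 1.54, 1.08 and 1.34 FPKM in Model mice. Control mouse 37 came close to the lowest Model mouse, and the remaining Control mice were at 0.317 FPKM or less. The difference was 0.72 with an adjusted P of 0.00809 (limma). Havcr2, the TIM-3 gene, was at 0.511, 1.06, 0.770, 0.543 and 1.16 FPKM in Control mice and at 1.83, 1.94, 2.63, 2.19 and 1.60 FPKM in Model mice, again without overlap. Its difference of 0.75 had an adjusted P of 0.0038 (limma).

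Lag3 and Tigit overlapped between the groups. For Lag3, Control mice had 0.565, 1.47, 0.778, 0.638 and 0.432 FPKM and Model mice 0.912, 2.02, 1.77, 1.72 and 1.18 FPKM, and 3 Model mice lay above all Control mice. The difference of 0.51 (95% interval 0.12 to 0.90) had an adjusted P of 0.0584, which became 0.0159 without Control mouse 37 and 0.0391 without Model mouse 23 (limma). Tigit was at 0.793, 1.49, 1.19, 0.954 and 0.716 FPKM in Control mice and at 2.08, 3.19, 3.39, 0.986 and 1.19 FPKM in Model mice, so Model mice fell into high and low values. Its difference of 0.58 (95% interval 0.07 to 1.10) had an adjusted P of 0.0983, and of 0.0475 without Model mouse 44 (limma).

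Ido1, whose enzyme opens the kynurenine pathway, changed most. It was at 0.649, 1.09, 0.272, 0.501 and 0.419 FPKM in Control mice and at 5.15, 7.69, 12.7, 8.67 and 10.4 FPKM in Model mice. The lowest Model mouse was far above the highest Control mouse, and the ratio of the mean FPKM was 15.2. The difference of 2.62 ± 0.22 (SE, 95% interval 2.13 to 3.10) had an adjusted P of 2.42e-05 (limma). In each of the 5 Model mice Ido1 had the highest FPKM of the 10 genes.

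**Figure D2:**
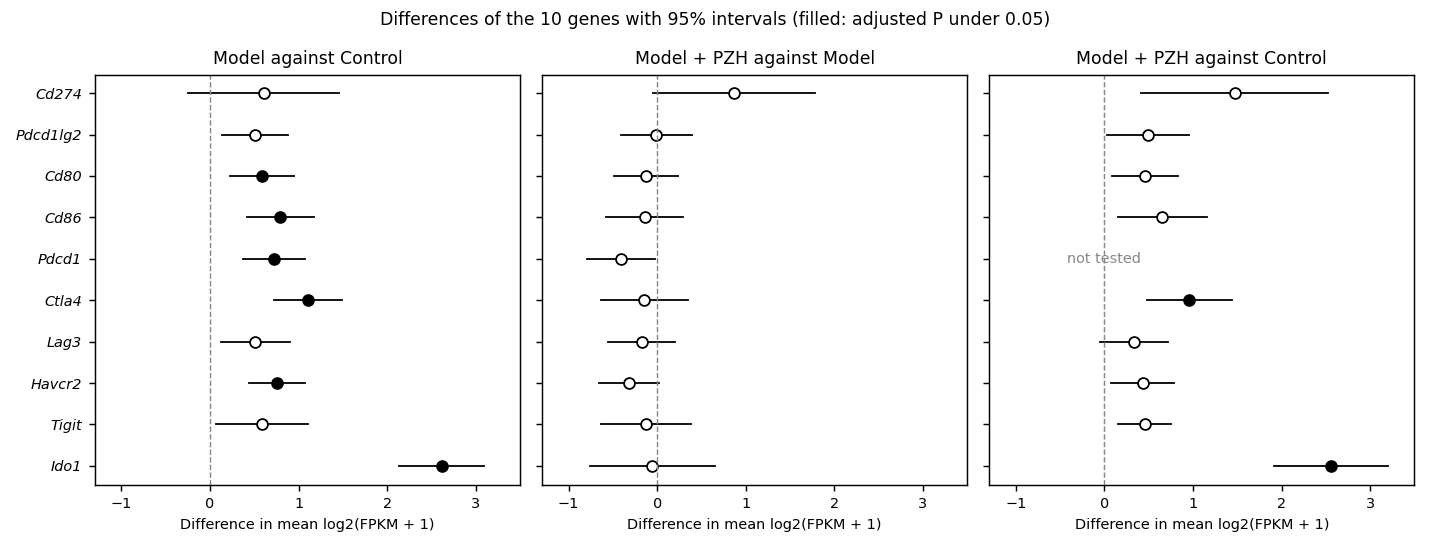
Differences in mean log2(FPKM + 1) (horizontal axes) for the 10 genes in 3 comparisons, with 95% intervals from limma; filled points have an adjusted P under 0.05. In Model against Control 6 points are filled, with Ido1 at 2.62, and in Model + PZH against Model none is filled, with Cd274 at 0.87 and Pdcd1 at -0.41; Pdcd1 was not tested in Model + PZH against Control.

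Markers of the cells that carry these molecules were measured beside them, and their part in the results was not tested. Over all 15812 genes tested in Model against Control, 2596 (16.4%) were higher and 1143 were lower. Of 9 T cell markers tested, 6 were higher in Model mice and none was lower by limma, and the summed level of the list was 6.27 to 22.5 FPKM in Control and 17.3 to 35.01 FPKM in Model mice. The regulatory T cell genes Foxp3 (0.71, adjusted P 0.002) and Il2ra (0.72, adjusted P 0.0119), which mark cells rich in CTLA-4, were higher, 2 of 4 tested. Of 10 macrophage and monocyte markers 5 were higher, of 6 dendritic cell markers Itgax (1.24) and the migration receptor gene Ccr7 (1.34), of 5 neutrophil markers 4, of 4 NK and cytotoxic markers Gzma (1.42) and Gzmb (1.42), and of 6 B cell markers 1. The remaining neutrophil marker, Ly6g, was at -0.58 and was not called. The leukocyte gene Ptprc (CD45) was at 3.66 to 10.5 FPKM in Control and 6.05 to 14.96 FPKM in Model mice, a difference of 0.73 with an adjusted P of 0.0845 (limma). Other tissue moved too. All 5 smooth muscle markers and 3 of 9 colon epithelium markers (Slc26a3, Car1, Cdhr5) were lower. The epithelium list was mixed: at an unadjusted P under 0.05, 4 were lower and 1 was higher, Muc2 (1.07, adjusted P 0.0513, limma). Of 5 fibroblast markers 2 were higher and Lum was lower. Cdh5 was the 1 of 5 endothelial markers that was higher, and of 3 squamous markers tested none passed. No defining marker of T cells, macrophages or dendritic cells was at 0 throughout a group.

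To set the genes beside the leukocyte and T cell RNA of the same mouse, each was divided by Ptprc, and the 5 receptors also by the mean of the CD3 chain genes (Cd3d, Cd3e, Cd3g and Cd247), with 0.1 FPKM added to both. Exact two-sided permutation tests over mice were used, 15 per comparison and unadjusted, whose smallest possible P is 0.00794. In Model against Control 4 of the 15 had a P under 0.05. Ido1 per Ptprc was higher by 2.94 on the log2 scale (P = 0.00794, exact permutation test), with all 5 Model mice (-0.95 to 1.06) above all Control mice (-3.74 to -2.33). Ctla4 per Ptprc was higher by 1.35 (P = 0.0159) and Ctla4 per CD3 by 0.75 (P = 0.0476), again by exact permutation tests, but with 1 FPKM added in place of 0.1 these were 0.38 (P = 0.349) and 0.28 (P = 0.206). Ctla4 per CD3 also had a P between 0.0635 and 0.0873 without any 1 of 4 Model mice (23, 33, 44 or 52) or 4 Control mice (37, 41, 48 or 50). Model mouse 33 had the lowest Ptprc of its group (6.05 FPKM), although its T cell marker sum (28.9 FPKM) was not the lowest. Its ratios to Ptprc were the highest of the Model mice, at 1.06 for Ido1 and -1.12 for Ctla4.

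Lag3 went the other way when divided by CD3. The log2 ratio was 0.11, -0.29, -0.09, -0.32 and 0.24 in Control mice and -0.66, -0.67, -0.34, -0.30 and -0.81 in Model mice. It was lower by 0.48 in Model mice (P = 0.0159, exact permutation test), with 4 of 5 Model mice below all Control mice. Lag3 itself was not lower in Model mice, while the CD3 genes Cd3d, Cd3g and Cd247 were each higher. The 11 other ratios of this comparison had a P of 0.0794 or more by exact permutation tests, Pdcd1 per Ptprc (0.87) having the lowest of them.

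**Figure D3:**
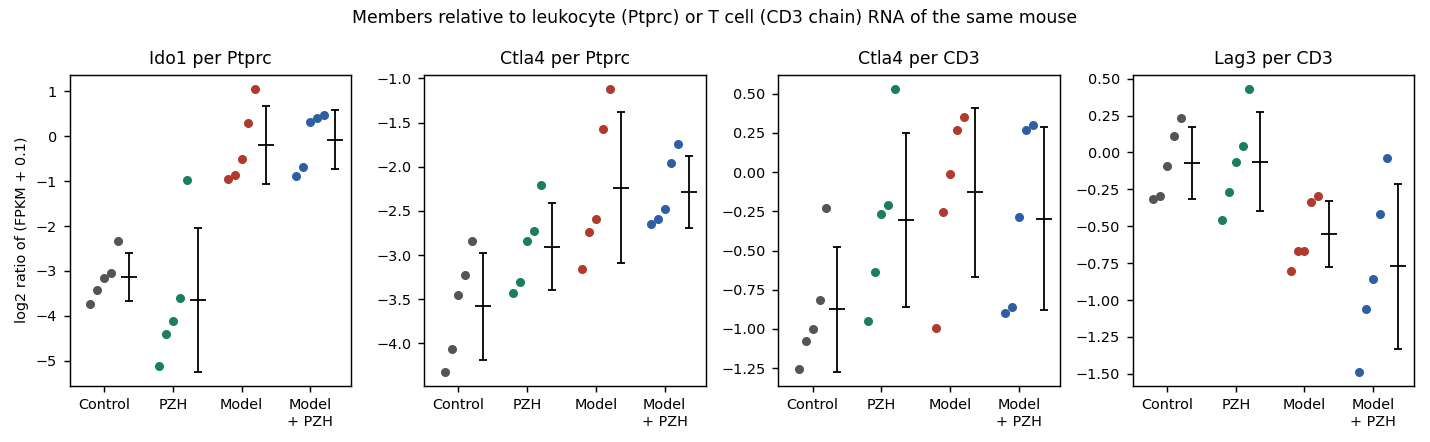
Log2 ratio of FPKM + 0.1 of a gene to Ptprc or to the mean of the CD3 chain genes in the same mouse (vertical axes); each point is 1 mouse, and bars give the mean ± SD (n = 5). Ido1 per Ptprc is above -1 in all Model and Model + PZH mice and below -2 in all Control mice, and Lag3 per CD3 is at -0.30 or below in all Model mice.

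Other genes of these pathways were taken from lists, and their counts stand beside the 16.4% of all genes tested that were higher in Model mice. Among 12 tested receptors beyond the 10 genes, 7 were higher in Model mice by limma and none was lower, with Tnfrsf9 (4-1BB, 1.56) and Tnfrsf4 (OX40, 0.94) first, then Sirpa (0.99), Icos (0.81), Cd28 (0.56), Cd96 (0.53) and Adora2a (0.49), all as log2 differences. Of 16 further ligands 6 were higher, among them Cd276 (B7-H3, 1.42), Cd47 (1.46), Tnfsf9 (the 4-1BB ligand, 1.33), Lgals9 (galectin-9, a ligand of TIM-3, 1.17), Vtcn1 (B7-H4, 0.82) and Pvr (a ligand of TIGIT, 0.49), and Lgals3 fell by 1.22. Downstream of Ido1, the kynurenine genes tested numbered 7. Slc7a5, an amino acid carrier (1.57), Kynu, which cleaves kynurenine (0.73), and Ahr, the receptor that binds kynurenine (0.49), were higher, and Kyat1 fell by 1.19. Of 17 interferon-gamma axis genes 7 were higher, among them Cxcl9 (2.17), Gbp2 (1.98), Cxcl10 (1.51), Socs1 (0.90), Gbp7 (0.86) and Jak2 (0.52), whereas Irf1 (0.02, adjusted P 0.951) and Irf8 (0.01, adjusted P 0.981) gave no call.

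Model + PZH against Model addressed whether these genes differed when PZH was given along with AOM/DSS. This comparison shares its Model mice with the first, so its values are given beside those above without being matched to them. None of the 10 genes passed an adjusted P under 0.05 in limma, by which 1 of 15888 genes (0.00629%) was called in either direction. At an unadjusted P under 0.05, Pdcd1 alone was lower, 1 of 10, where 8.21% of the genes tested were lower, and no member was higher, where 3.51% of the genes tested were. The median difference of the 10 genes was -0.14, beside -0.04 over all genes tested.

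Pdcd1 was at 0.401, 0.357, 0.813, 1.59 and 0.556 FPKM in Model + PZH mice, against 1.08 to 1.54 FPKM in Model mice. Mouse 35 was above all Model mice and the other 4 were below all of them. The difference was -0.41 (95% interval -0.79 to -0.03, unadjusted P 0.0381, limma). Without mouse 35 it was -0.56 with an adjusted P of 0.0299, the only member called when any 1 mouse was left out, in a fit that called 808 genes. Without any 1 of Model mice 30 and 33 or Model + PZH mice 2, 13 and 36, no member was lower at an unadjusted P under 0.05 (limma). Without Model + PZH mouse 2, 1 member, Cd274, was higher at that level, as were 350 of the 15720 genes tested. Relative to CD3 and to Ptprc, Pdcd1 differed by -0.78 (P = 0.111) and -0.66 (P = 0.135) by exact permutation tests. None of the 15 ratios of this comparison had a P under 0.05. Leaving out 1 mouse at a time, the difference relative to CD3 had a P of 0.0714 to 0.198, except without mouse 35, where it was -1.08 (P = 0.0238, exact permutation tests, unadjusted). In mouse 35 the log2 ratio to CD3 (-0.34) was the highest of the 10 mice compared.

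Havcr2 was at 1.06, 1.51, 1.25, 2.27 and 1.18 FPKM in Model + PZH mice. Mouse 35 was again the highest, and the other 4 were below all Model mice, whose lowest value was 1.60 FPKM. Its difference was -0.32 with a 95% interval from -0.65 to 0.02 (unadjusted P 0.061, limma).

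Cd274 had the widest spread. Model + PZH mice had 2.07, 9.96, 14.6, 5.11 and 4.99 FPKM, and 4 of the 5 were above all Model mice (highest 4.55 FPKM). Mice 13 and 15 had the highest values of all 20 mice, and mouse 2 was within the Model range. The difference of 0.87 had a 95% interval from -0.05 to 1.78 and an unadjusted P of 0.0604 (adjusted P 0.446, limma). Without mouse 2 Cd274 was higher at an unadjusted P under 0.05 but was not called (limma). Per Ptprc the difference was 1.22 (P = 0.135, exact permutation test), with 3 of 5 Model + PZH mice above all Model mice. Among these was mouse 36, which had the lowest Ptprc of its group (4.46 FPKM).

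The interferon-gamma axis was measured beside Cd274, and its part in the Cd274 values was not tested. Of 17 genes none was called in Model + PZH against Model, while 5 were higher at an unadjusted P under 0.05, beside 3.51% of all genes tested, and none was lower. Irf1 (0.56, P 0.00775) and Irf8 (0.64, P 0.0174), which encode transcription factors of the interferon response, were among them, both by limma and unadjusted. Irf1 was at 92.3, 128, 112, 76.9 and 72.9 FPKM in Model + PZH mice and at 53.2 to 75.3 FPKM in Model mice. The highest Irf1 values were in mice 13 and 15, which were also highest for Cd274.

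**Figure D4:**
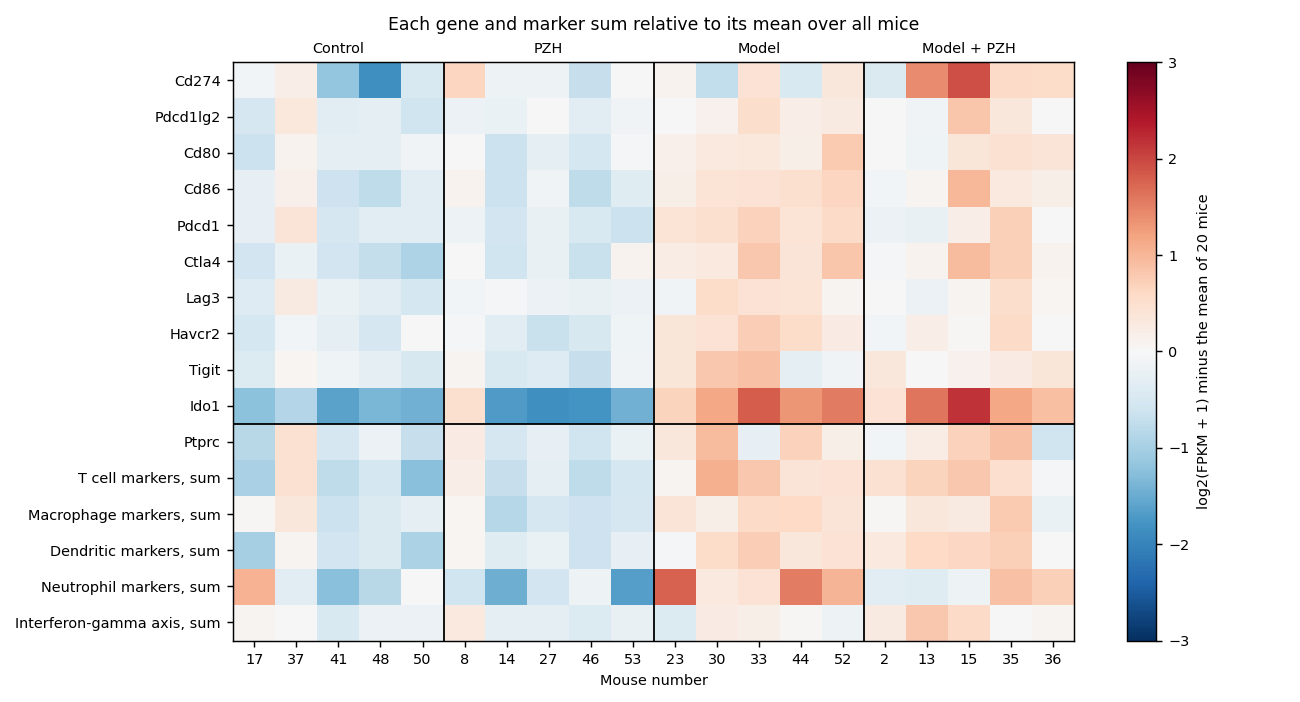
Colour gives log2(FPKM + 1) minus its mean over the 20 mice, for the 10 genes (above the line) and for Ptprc and summed marker lists (below it); columns are mice by group. Ido1 is below its mean in all Control mice and above it in all Model and Model + PZH mice, and Cd274 is highest in Model + PZH mice 15 and 13.

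The remaining ligands and receptors gave differences between -0.18 and -0.01, none of them called. Ctla4 was at 1.048, 1.29, 3.12, 2.46 and 1.27 FPKM in Model + PZH mice, with 3 mice below and 1 above all Model mice, and its difference was -0.15 (95% interval -0.64 to 0.35). Cd86 was at 1.72, 2.01, 4.68, 2.52 and 2.21 FPKM, where mouse 15 was above and 3 mice were below all Model mice, with a difference of -0.14 (-0.57 to 0.29). Ido1 was at 4.22, 10.7, 16.4, 7.67 and 6.25 FPKM, spanning the Model range, with a difference of -0.05 (-0.76 to 0.65). Intervals of the others were -0.41 to 0.39 for Pdcd1lg2, -0.49 to 0.24 for Cd80, -0.55 to 0.20 for Lag3 and -0.63 to 0.38 for Tigit, all by limma. These intervals leave room for changes in either direction. No marker of T cells, regulatory T cells, NK cells, macrophages, dendritic cells, neutrophils, B cells, epithelium, muscle, fibroblasts, endothelium or squamous cells was called in this comparison. Neutrophil markers had the most low unadjusted P values, with 4 of 5 lower, and their sum was 238 to 661 FPKM in Model and 151 to 358 FPKM in Model + PZH mice. The remaining neutrophil marker, Ly6g, went the other way (0.44, unadjusted P 0.0975, limma). It made up much of that sum, with a mean of 104 FPKM in Model and 146 FPKM in Model + PZH mice. Of the further ligands 4 of 17 were lower and 2 higher at an unadjusted P under 0.05, with Cd47 (-1.06, P 0.000516), Vtcn1 (-1.07, P 0.00715) and Cd276 (-0.70, P 0.00742) first, and none was called. No further receptor (13 tested) or kynurenine gene (7 tested) had an unadjusted P under 0.05.

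Model + PZH against Control shares both groups with the comparisons above. Of 9 genes tested, Ido1 and Ctla4 were higher by limma, 2 genes, where 1.55% of 15616 genes tested were higher. Both were also the only members whose 5 Model + PZH mice were above all Control mice, an order seen in 4.18% of the genes tested. Ido1 differed by 2.56 ± 0.29 (SE, adjusted P 0.00847) and kept its call without any 1 mouse. Ctla4 differed by 0.96 with an adjusted P of 0.045, which was 0.106 with no filter, 0.192 without Control mice 17 and 50, and 0.0572 to 0.107 without any 1 of Control mice 17, 41, 48 and 50 or Model + PZH mice 2, 15, 35 and 36, which leaves Ido1 alone. Cd274 differed by 1.47 (95% interval 0.42 to 2.53, unadjusted P 0.0107, adjusted P 0.122), with 4 of 5 Model + PZH mice above all Control mice, and it was called (adjusted P 0.0344) when all 20 mice shared 1 model. Pdcd1 was not tested here since too few mice reached 0.5 FPKM. In the interferon-gamma axis 7 of 17 genes were higher, among them Cxcl9 (2.75) and Gbp2 (2.55).

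PZH against Control asked about PZH without AOM/DSS. Of the 10 genes 5 passed the filter (Cd274, Cd86, Lag3, Havcr2 and Tigit) and none was called, where 0.00645% of 15506 genes were called in either direction (limma). None of the 5 had an unadjusted P under 0.05, where 1370 of the 15506 genes did. With 5 genes tested, a count of 0 is not far from that share. Cd274 was at 5.48, 2.71, 2.72, 1.55 and 3.07 FPKM in PZH mice, 1 of them above all Control mice, and its difference was 0.60 (95% interval -0.25 to 1.44). The other 4 differences lay between -0.06 and 0.09. Ido1, which was not tested here, was at 4.43, 0.188, 0.0742, 0.117 and 0.423 FPKM in PZH mice. Mouse 8 stood far above the other 4 PZH mice, 3 of which were below all Control mice, and the same mouse had the highest Cd274, Cd86, T cell marker sum (18.7 FPKM) and interferon-gamma axis sum (574 FPKM) of its group. No context list had a called gene in this comparison.

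Model + PZH against PZH gave AOM/DSS under PZH. Ido1 was called, 1 of 9 genes tested, with 1.74% of 15636 genes higher (limma). Its difference of 2.51 ± 0.47 (SE) had an adjusted P of 0.0308, which was 0.0719 with no filter and 0.0685 to 0.0765 without any 1 of PZH mice 14, 27, 46 and 53 or Model + PZH mouse 15, which leaves no gene called. At an unadjusted P under 0.05, 6 of the 9 genes were higher, beside 13% of the genes tested. The interaction, whether the difference under PZH itself differed with and without AOM/DSS, was fitted to all 20 mice. None of the 10 genes was called, where 0.0118% of 16936 genes were called. None had an unadjusted P under 0.05 either, where 1749 of the 16936 genes did. The intervals were wide, for example -0.97 to 1.51 for Cd274 and -1.09 to 0.16 for Ctla4 (limma).

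The files list 2 transcripts of Ido1, which share 9 of their 10 exons and differ in the first, the starts being 1343 bases apart. The look at single transcripts was added after the values were seen. In Ido1-201 the coding sequence of 1221 bases begins in exon 1, whereas in Ido1-202 it begins in exon 3 and has 948 bases. The coding part of exon 1 of Ido1-201 (GENCODE M21, GRCm38, chr8:24596841-24596939, minus strand), printed below with the start codon in capitals, is absent from Ido1-202. Ido1-202 holds exon 2 and exon 3, but exon 2 is non-coding in it and only 42 of the 120 bases of exon 3 are coding.
Ido1-201 exon 1, coding part: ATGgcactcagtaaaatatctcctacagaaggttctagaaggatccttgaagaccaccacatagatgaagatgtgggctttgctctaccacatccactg

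Ido1-202 held most of Ido1 in Control mice, where Ido1-201 made up 9.92% ± 6.90 (SD, n = 5). The share of Ido1-201 was 21.9% ± 14.2 in PZH, 38.9% ± 34.4 in Model and 66.9% ± 41.3 in Model + PZH mice. The Control and PZH shares rest on few fragments. All of Ido1 had an estimated 8.75 to 32.5 fragments per Control mouse, and 2.00 to 10.5 per PZH mouse other than mouse 8. In single Model mice Ido1-201 was at 1.02, 1.76, 12.7, 2.59 and 2.26 FPKM and Ido1-202 at 4.13, 5.93, 0, 6.08 and 8.13 FPKM. In Model + PZH mice Ido1-201 was at 4.22, 10.1, 15.9, 1.94 and 1.14 FPKM and Ido1-202 at 0, 0.632, 0.506, 5.74 and 5.11 FPKM. Model mouse 33 and Model + PZH mice 2, 13 and 15 had most of their Ido1 FPKM on Ido1-201, and the other AOM/DSS mice on Ido1-202. Since the transcripts differ only in their first exon, the split rests on how StringTie assigned shared fragments, and it was not tested. The transcripts differ in length (1560 and 1656 bases), so the summed FPKM used above also depends on the split to that extent.

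**Figure D5:**
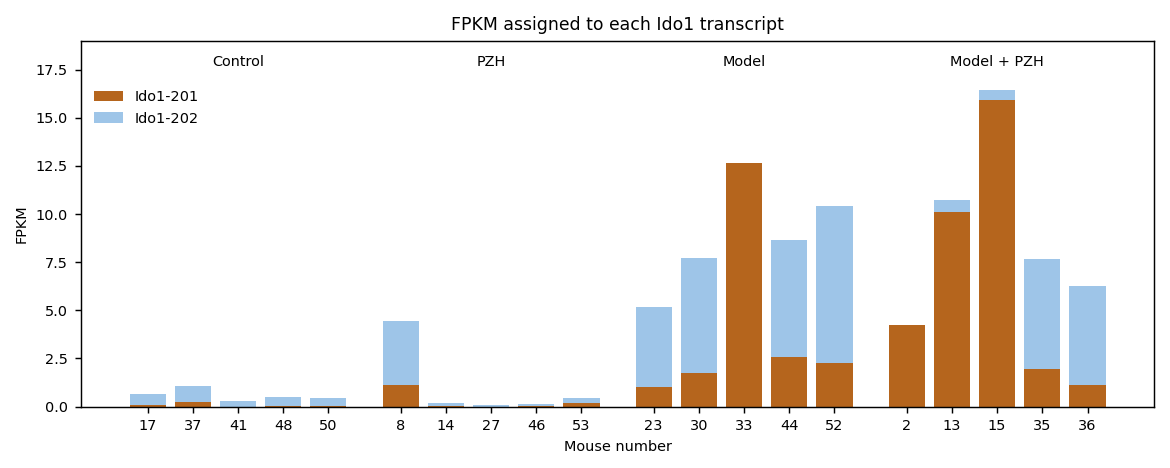
FPKM (vertical axis) assigned to Ido1-201 and Ido1-202 in each mouse, stacked, so that the bar height is the Ido1 value used in the text. Model mouse 33 and Model + PZH mouse 2 have no Ido1-202, and Model + PZH mice 13 and 15 have nearly none, while the other AOM/DSS mice carry mostly Ido1-202.

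Variation between mice of the same group was described by deviations of log2(FPKM + 1) from the group means over the 20 mice. Depth and cell content differed between mice and are common to all genes of a mouse, and their part in the correlations was not tested. Between pairs of the 10 genes, Pearson's r ranged from -0.01 for Cd274 with Lag3 to 0.81 for Pdcd1lg2 with Ctla4. The next highest pairs were Cd86 with Ctla4 (0.78) and Cd86 with Cd274 (0.75). Among 14140 genes with a mean of at least 1 FPKM, those most like Cd274 were Emb (0.83), Serpina3f (0.79) and Ifi47 (0.77), and those most like Ido1 were Ifi47 (0.85), Adgre1 (0.82) and Scimp (0.81). Ctla4 was most like Gzmb (0.85), Mefv (0.82) and Icam1 (0.82), Pdcd1 most like Pla2g2d (0.88), Limd2 (0.87) and Clu (0.86), and Pdcd1lg2 most like Cd40 (0.83), Ly9 (0.81) and Ctla4. The first genes for the others were Sh3kbp1 for Cd86 (0.89), N4bp2 for Cd80 (0.83), Calhm2 for Lag3 (0.81), Eid1 for Havcr2 (0.85) and Scamp2 for Tigit (0.78). These are the highest of many values and carry no test.

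Depth limited the weaker genes. Estimated fragments per mouse, read from the step size, had a median of 12.5 for Pdcd1, 13.5 for Pdcd1lg2, 18.1 for Cd80 and 21.7 for Tigit, against 171 for Cd274 and 110 for Ido1. Pdcd1 was listed at 0 in PZH mouse 53 and Pdcd1lg2 at 0 in Control mouse 50.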

How the data were processed

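RNA of colon tissue was depleted of ribosomal RNA, sequenced, aligned to mm10 with HISAT2 and quantified per transcript with StringTie by the authors. The values deposited were FPKM for 118434 transcripts in each of 20 mice, with no counts, so tests for counts were not used. Of these, 22252 had been assembled without a gene name. Values of 96032 transcripts present in GENCODE M21 were summed into 32991 genes, and no further scaling was applied. The 10 genes and all lists were chosen with earlier results of these data known.

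Groups were compared in pairs of 5 mice with limma 3.58.1 in R 4.3.3 on log2(FPKM + 1), with an intensity trend, over genes that reached 0.5 FPKM in 5 or more of 10 mice, and P values were adjusted by Benjamini-Hochberg over all genes tested. No source names a sequencing batch. P values by limma set the difference between group means against the spread between mice, which with 1 library per mouse includes the spread between libraries. Ratios to Ptprc and CD3 were compared with exact permutation tests. The rule for named genes took all 10 members, the genes called in each list or else those with the lowest P, and for each member the genes most like it. The fits were tested on simulated data. Alternatives were a pseudocount of 0.1, no filter, a filter of 1 FPKM, scaling by the median of ratios, all 20 mice in 1 model, sample quality weights, protein-coding transcripts only and leaving out each mouse. Leaving out Control mice 17 and 50 together, the motifs, the printed promoters and the Ido1 transcripts were chosen after the values were seen. Depth was taken as the step of FPKM times transcript length. Between 47.8 and 52.4% of low values lay on whole steps, so it is an estimate. Some genes of the lists are not reported here by name.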

Additional observations from a re-analysis of the deposited data

Results flagged for a closer look

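In each of the 40 sets of 5 values (10 genes in 4 groups), the mouse at either end was compared with its neighbour by Dixon's criterion. It singled out 5 values, where chance gives about 2. In Control mouse 37, Pdcd1lg2 was at 0.873 FPKM, with the other Control mice at 0.246 or less, and Pdcd1 was at 1.04 FPKM, with the others at 0.317 or less. In Model mouse 52, Cd80 was at 1.92 FPKM against 0.874 to 1.09 in the other Model mice. In Model + PZH mouse 15, Cd86 was at 4.68 FPKM against 1.72 to 2.52 in the others of its group. In PZH mouse 8, Ido1 was at 4.43 FPKM against 0.0742 to 0.423 in the other PZH mice. All 5 were the highest of their group.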

How the results depend on the processing

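In Model against Control, between 5 and 9 members were called higher under all alternatives and none lower, with 10 members tested, or 8 with the filter of 1 FPKM. The share over all genes moved as well. The 9 came with all 20 mice in 1 model, where 2963 of 16936 genes were higher. With the filter of 1 FPKM 5 members were higher, and 2409 of 14017 genes. Model + PZH against Model had 0 members called, and 0 to 1 when 1 mouse was left out. Model + PZH against Control had 2, and 3 with all 20 mice in 1 model, where 952 of 16936 genes were higher. It had 1 with no filter (68 of 31060 genes higher), 1 without Control mice 17 and 50 (22 of 15180 genes), and 1 to 2 when 1 mouse was left out. Model + PZH against PZH had 1, but 0 with no filter (63 of 30953 genes higher), and 0 to 1 when 1 mouse was left out. PZH against Control and the interaction had 0 throughout. Fewer mice, or more genes tested, are part of how these settings are built; no further cause was tested.

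Sign changes were confined to uncalled differences near 0. In Model + PZH against Model, Pdcd1lg2 was 0.0045 after scaling by the median of ratios. Leaving out 1 mouse gave -0.16 to 0.067 for Pdcd1lg2, -0.28 to 0.0082 for Tigit and -0.28 to 0.15 for Ido1. In PZH against Control, Lag3 was -0.058 without Control mice 17 and 50, and Cd86 was -0.0014 after scaling and -0.056 with protein-coding transcripts only. Leaving out 1 mouse there gave -0.11 to 0.13 for Cd86, -0.11 to 0.042 for Havcr2 and -0.16 to 0.032 for Tigit.

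Scaling moved the median of all genes by less than 0.1. No paired analysis was possible because the mouse numbers differ between groups. Depth limits the genes with few fragments, Pdcd1 and Pdcd1lg2 first, and FPKM without counts leaves their counting error unmodelled.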
